A study of Homo sapiens with 11 samples.

Results

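CEACAM1, CEACAM3, CEACAM5 and CEACAM6 are carcinoembryonic antigen-related cell adhesion molecules, immunoglobulin-like proteins of the cell surface. These 4 genes of the 21316 listed for A549 were chosen by their level in the RNA-seq libraries of A549 cells, above all by their high level in the library of METTL3 knockdown 1. Their A549 values are therefore given as a description, without a test. Only CEACAM1 and CEACAM5, 2 of the 4, are among the 20915 genes listed for H1299. CEACAM3 and CEACAM6 were not analysed in that line.

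Genes of this family sit in a cluster on chromosome 19. Most of their proteins bind one another across neighbouring cells through the outermost immunoglobulin domain, and several are receptors for bacteria. CEACAM5, the carcinoembryonic antigen measured in blood as a tumour marker, and CEACAM6 are held in the membrane by a glycosylphosphatidylinositol (GPI) lipid anchor and are found on gut and airway epithelium and many carcinomas. CEACAM1 spans the membrane and carries inhibitory signalling motifs in its longer isoform. CEACAM3 also spans the membrane and serves on granulocytes as a receptor for taking up bacteria.

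A549 and H1299 are human non-small cell lung cancer lines, the former from a lung adenocarcinoma and the latter from a lymph node metastasis. Poly(A) RNA was sequenced from each line with a short hairpin RNA against GFP as control (shGFP, 1 library) and with a hairpin against METTL3, the catalytic subunit of the enzyme that writes N6-methyladenosine on mRNA (shMETTL3, 2 libraries, called library 1 and library 2 below). The labels give no age of culture or duration of the knockdown, and do not state what the numbers 1 and 2 are, different hairpins or repeats of one. No separate cultures are named, so any p-value measures only the spread between these libraries. Reads in genes ranged from 14447379 to 19966206 in A549 and from 23099169 to 26351309 in H1299.

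METTL3 itself stood at 556.84 in A549 shGFP, 231.43 in library 1 and 232.19 in library 2, and at 271.2, 123.1 and 100.2 in the same order in H1299. Each value is a number of reads divided by 1 factor per library. The knockdown libraries were thus lower than the control in both lines, in A549 by nearly the same amount (log2 differences of -1.26 and -1.26). The A549 libraries carried keratin 8 (KRT8, 8420.31 to 12212.86) and keratin 18 (KRT18, 8956.88 to 11824.29), as epithelial cells do. Of the leukocyte markers, PTPRC did not exceed 0.26, but others were present. CD79A reached 4.69, CD14 8.68, LYZ 45.71 and CD68 176.56 in the highest A549 library of each.

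The 250 bases before the RefSeq start of each gene (GRCh38.p14) are shown because the 4 genes moved together in library 1 but not in library 2. Capitals in CEACAM3, CEACAM5 and CEACAM6 mark the longest run common to these 3 genes, TGAGAGGGGAGGGGA, and in CEACAM5 and CEACAM6 also the hexamer CACGTG, a sequence known as an E-box. In CEACAM1 capitals mark GAGAGGGG, the longest run common to all 4.
CEACAM5, chr19:41708376-41708625, plus strand: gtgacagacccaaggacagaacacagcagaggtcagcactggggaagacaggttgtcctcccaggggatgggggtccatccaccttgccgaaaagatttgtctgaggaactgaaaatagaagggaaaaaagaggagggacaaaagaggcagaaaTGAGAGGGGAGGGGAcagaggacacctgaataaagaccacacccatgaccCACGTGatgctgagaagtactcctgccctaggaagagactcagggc
CEACAM6, chr19:41755280-41755529, plus strand: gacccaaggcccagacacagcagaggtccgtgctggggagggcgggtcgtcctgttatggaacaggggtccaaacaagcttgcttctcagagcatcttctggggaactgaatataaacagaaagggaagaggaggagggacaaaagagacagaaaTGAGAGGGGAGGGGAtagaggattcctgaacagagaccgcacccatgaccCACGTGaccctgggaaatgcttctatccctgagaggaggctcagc
CEACAM3, chr19:41796337-41796586, plus strand: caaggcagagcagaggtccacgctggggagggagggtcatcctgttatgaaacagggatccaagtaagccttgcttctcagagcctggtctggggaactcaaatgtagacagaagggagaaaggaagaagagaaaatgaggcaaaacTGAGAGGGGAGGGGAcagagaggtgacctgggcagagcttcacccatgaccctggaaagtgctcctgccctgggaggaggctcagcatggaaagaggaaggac
CEACAM1, chr19:42528482-42528731, minus strand: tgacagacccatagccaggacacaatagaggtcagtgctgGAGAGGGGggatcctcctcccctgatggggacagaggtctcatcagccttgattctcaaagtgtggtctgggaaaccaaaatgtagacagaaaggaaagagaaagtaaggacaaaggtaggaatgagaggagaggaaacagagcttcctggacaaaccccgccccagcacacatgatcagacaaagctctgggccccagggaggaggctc

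The 15-base run began 103 bases before the start in CEACAM3, 96 bases in CEACAM5 and 95 bases in CEACAM6. It also stood 94 and 90 bases before CEACAM7 and CEACAM8, but not before CEACAM1. On both strands, 6 of 27305 windows of this length in the table, or 0.022%, held it, and these 5 family genes are among them. The search for a run common to CEACAM3, CEACAM5 and CEACAM6 fixed 3 of these in advance. The windows of the 6 family genes are also alike at large, with 54.6 to 80.5% identity between pairs. Nothing is therefore read from the rarity of the run. CACGTG began 46 and 45 bases before CEACAM5 and CEACAM6 and was in 6.49% of all windows. It was not in the windows of CEACAM1, CEACAM3, CEACAM7 or CEACAM8. GAGAGGGG, part of the longer run in 5 of these genes, was in 3.61% of windows and began 210 bases before CEACAM1. GGGCGG, a GC box, was found before CEACAM1, CEACAM6 and CEACAM8 and in 42.3% of windows. TATAAA was found before CEACAM6 alone of these 6 genes and in 11.1% of windows. Over a global alignment, the windows of CEACAM5 and CEACAM6 were identical in 190 of 258 columns (73.6%), and those of CEACAM1 and CEACAM3 in 159 of 276 (57.6%). A match of letters is a description of the window and not evidence of a bound factor.

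The 4 members were highest in library 1, and CEACAM3, CEACAM5 and CEACAM6 were lowest in library 2, with the control between them. CEACAM6 stood at 642.37 in shGFP, 10971.79 in library 1 and 114.06 in library 2, from 2441, 30721 and 365 reads. Library 1 was thus 17.1-fold above the control (95% interval 16.4 to 17.8), and library 2 was 5.63-fold below it (5.04 to 6.30). These intervals are exact (Clopper-Pearson) and cover counting error only, not the spread between cultures. Library 1 exceeded library 2 by 96.2-fold (86.8 to 107). In log2(value + 1) this was the highest difference between the knockdown libraries among 17454 genes with a mean of at least 1, at 6.58. In a bulk library a larger share of cells with the transcript and more transcript per cell cannot be told apart.

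CEACAM5 stood at 20.26 in shGFP, 519.64 in library 1 and 5.63 in library 2, from 77, 1455 and 18 reads. The order of the libraries was that of CEACAM6. Library 1 was 25.6-fold above the control (95% interval 20.4 to 32.7) and library 2 was 3.60-fold below it (2.14 to 6.40). The difference between the knockdown libraries, 92.4-fold (58.2 to 156), ranked as the second highest of all tested genes.

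CEACAM3, the granulocyte receptor, was read 10 times in shGFP, 148 times in library 1 and not at all in library 2, at values of 2.63, 52.86 and 0. Library 1 was 20.1-fold above the control (95% interval 10.6 to 42.8). With library 2 set to a floor of 3 reads, library 1 was 56.4-fold higher and the control 2.81-fold higher. These ratios are not lower limits. The 95% interval of 0 reads in library 2 reaches a value of 1.15, above the floor value of 0.9375. The ratio of the control also rests on only 10 reads.

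CEACAM1 stood at 3.16 in shGFP, 56.07 in library 1 and 2.81 in library 2, from 12, 157 and 9 reads. Library 1 was 17.8-fold above the control (95% interval 9.88 to 35.1), close to the ratio of CEACAM6. Library 2 gave 0.891 of the control value, with an interval of 0.331 to 2.30 that contains 1. A decrease of CEACAM1 in library 2 was therefore not detectable at this depth. Its interval also overlapped that of CEACAM5, for which the same ratio was 0.278 (0.156 to 0.468), but not that of CEACAM6, 0.178 (0.159 to 0.198).

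**Figure D1:**
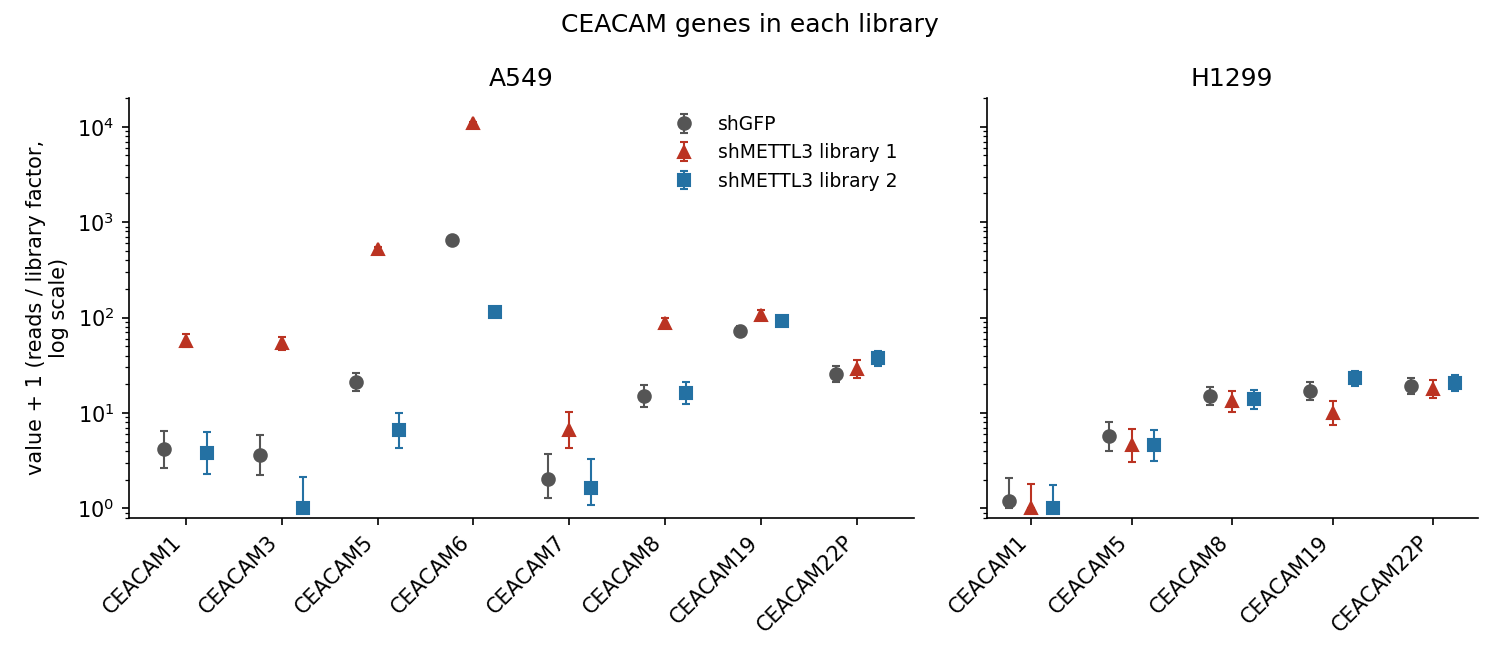
Value plus 1 (log axis; reads divided by the library's factor) of CEACAM genes in the shGFP library and the 2 shMETTL3 libraries of A549 (left) and H1299 (right), with exact Poisson 95% intervals for counting error. In A549 the 4 members, CEACAM7, CEACAM8 and CEACAM19 are highest in library 1, where CEACAM6 reaches 10971.79; in H1299 no listed family gene exceeds 22.2.

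**Figure D2:**
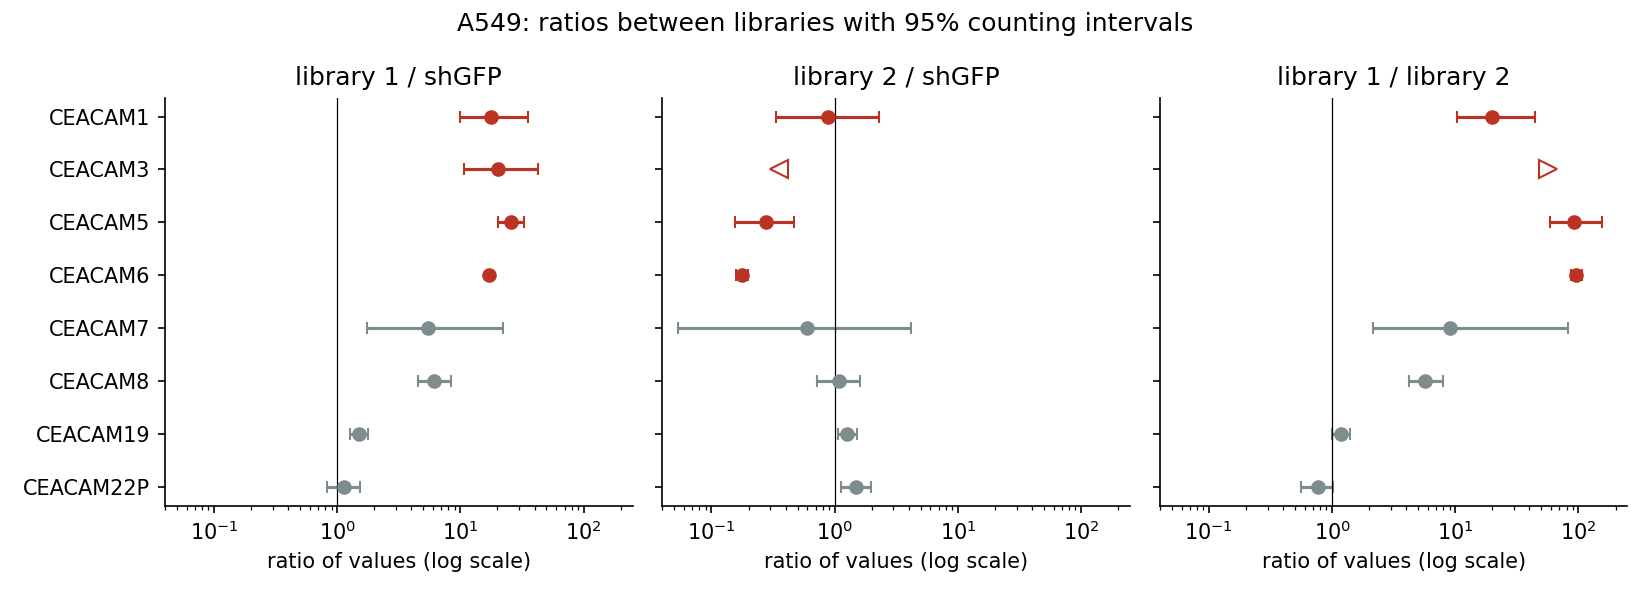
Ratios of values between A549 libraries (log axis) with exact 95% counting intervals. Open triangles are ratios against a floor of 3 reads, not confidence limits, and the 4 members are in red. In library 1 the members lie between 17.1 and 25.6 times shGFP, while library 2 is below shGFP for CEACAM5 and CEACAM6 and spans 1 for CEACAM1.

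All 4 members were at least 2-fold higher in library 1 than in shGFP, as were 3.48% of the tested genes, and none was at least 2-fold lower (1.38% of tested genes). For library 2 against shGFP, 3 of 4 were at least 2-fold lower, against a background of 1.8% of genes, and none was at least 2-fold higher (1.16%). For library 1 against library 2 all 4 were at least 2-fold higher (5.43% of tested genes) and none lower (2.3%). The choice of the genes fixed these counts, and nothing is read from them. Library 1 and library 2 were both set against the same shGFP library, so their differences from it are not independent. In log2(value + 1), CEACAM5, CEACAM6, CEACAM3 and CEACAM1 differed between library 1 and shGFP by 4.61, 4.09, 3.89 and 3.78, ranks 3, 5, 7 and 11 from the top. Between library 2 and shGFP, CEACAM6, CEACAM3, CEACAM5 and CEACAM1 differed by -2.48, -1.86, -1.68 and -0.13. From the lowest, CEACAM6 ranked 3, CEACAM3 14 and CEACAM5 26 there, whereas CEACAM1 ranked 5660 of 17454. On this scale the changes of CEACAM1 and CEACAM3 are understated, since their values are low. The next family gene after CEACAM1 in library 1 against shGFP was CEACAM8, at 2.53.

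**Figure D3:**
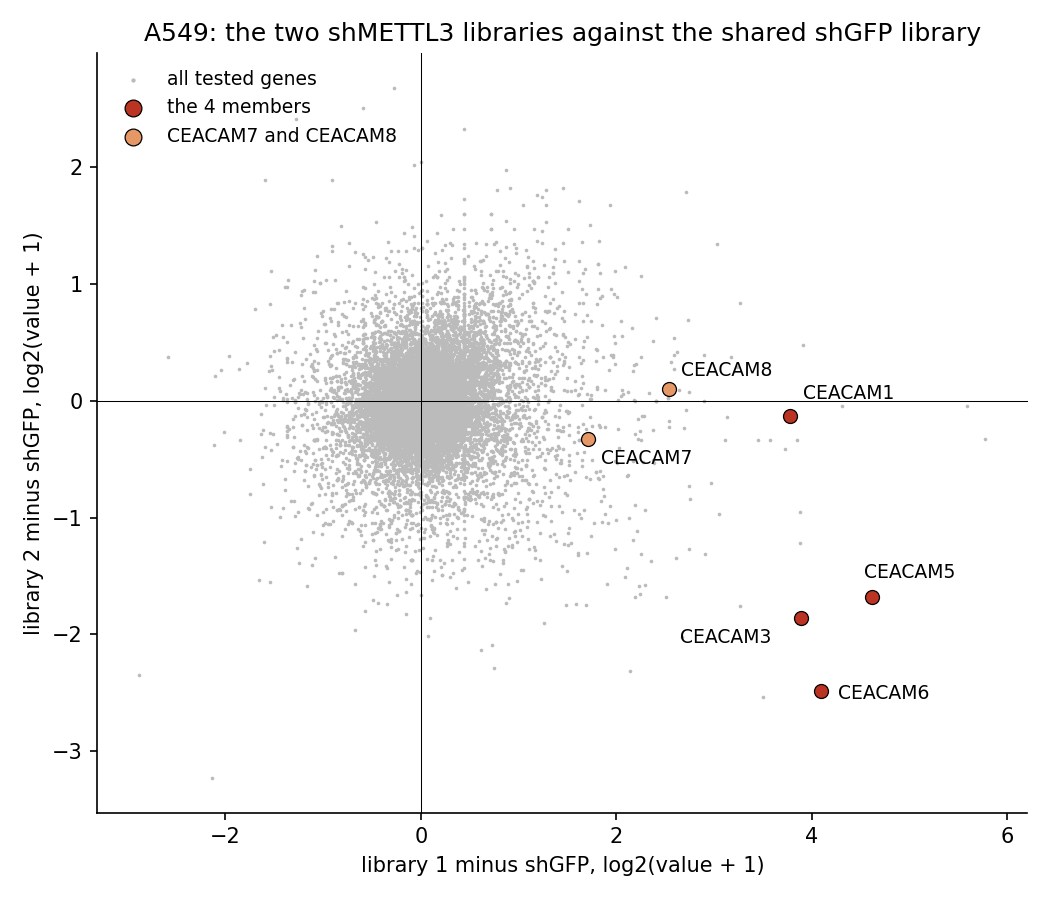
Difference from shGFP in log2(value + 1) of each tested A549 gene in library 1 (horizontal) and library 2 (vertical); both axes share the shGFP library. CEACAM6, CEACAM5 and CEACAM3 lie at the lower right, at 4.09 and -2.48 for CEACAM6, and CEACAM1 lies near 0 on the vertical axis.

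The summed value of the members was 668.42 in shGFP, 11600.36 in library 1 and 122.5 in library 2. Their reads were 0.0127% of all reads in genes in the control, 0.225% in library 1 and 0.00238% in library 2. CEACAM6 supplied 96.1% of the members' reads in shGFP (95% exact interval 95.3 to 96.8), 94.6% in library 1 (94.3 to 94.8) and 93.1% in library 2 (90.1 to 95.4). CEACAM5 supplied 3.03% (2.40 to 3.77), 4.48% (4.26 to 4.71) and 4.59% (2.74 to 7.16) of them. The shares thus differed between libraries by a few percentage points, while the sum differed far more. CEACAM1 supplied 0.472% in shGFP (0.244 to 0.824), 0.483% in library 1 (0.411 to 0.565) and 2.30% in library 2 (1.06 to 4.31). CEACAM3 gave 0 of 392 reads in library 2, for which the exact 95% interval allows a share of up to 0.937%. Shares of reads are not corrected for transcript length, so they do not rank the genes by number of molecules. The members have near-identical stretches, and how reads that match several of them were assigned is not given in the sources used here. Low values beside the much higher CEACAM6 are therefore uncertain.

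Of the 10 other CEACAM genes in the fixed list, 7 are listed for A549 and 4 had a mean of at least 1. CEACAM8, a GPI-anchored granulocyte protein also known as CD66b, stood at 14.21 in shGFP, 87.14 in library 1 and 15.31 in library 2. It was 6.13-fold above the control in library 1 (95% interval 4.55 to 8.40) and 1.08-fold in library 2 (0.717 to 1.62). CEACAM8 thus shared the high value in library 1 but, like CEACAM1, not the low value in library 2. CEACAM7, a GPI-anchored protein of the colon, stood at 1.05, 5.71 and 0.63, from 4, 16 and 2 reads, and reached a mean of 1 only through library 1. CEACAM19 stood at 71.05, 106.43 and 90.31, 1.5-fold (1.27 to 1.77) and 1.27-fold (1.07 to 1.51) above the control in libraries 1 and 2. The pseudogene CEACAM22P stood at 24.74, 27.86 and 36.56 and was highest in library 2. CEACAM16, CEACAM20 and CEACAM21 did not exceed 1.43 in any A549 library. The related pregnancy-specific glycoproteins, secreted proteins of the placenta, were near 0: the sum over all 11 was 6.57, 8.21 and 6.56, and PSG4 and PSG5, the 2 with a mean of at least 1, did not exceed 3.21.

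The position of the genes was compared with their values in A549. In RefSeq order, 30 protein-coding genes from CEACAM21 to CEACAM8 were compared. CEACAM7, CEACAM5, CEACAM6 and CEACAM3 follow one another with no other gene between them, 22 compared genes outside the family come next, and CEACAM1 and CEACAM8 close the stretch. Of those 22 genes, 18 had a mean of at least 1, and their differences between library 1 and shGFP ran from -0.62 to 0.77. Between library 2 and shGFP these 18 genes ran from -0.78 to 0.70. The ribosomal protein gene RPS19, close to CEACAM3, was at 12435.79, 10718.57 and 14940.63, and CIC, a transcriptional repressor near the middle, at 571.84, 664.64 and 613.75. RPS19 and CIC were chosen after their values were seen. In the fixed list of 33 genes around the cluster, 30 were tested. None of the 30 was at least 2-fold higher in library 1 than in shGFP (3.48% of all tested genes) and 1 was lower (1.38%). That gene lies between CEACAM3 and CEACAM1 and is not among the 18 above. At these shares few or none of 30 genes would be past 2-fold, so nothing is read from the counts. The median difference was 0.09 in library 1 and -0.03 in library 2, beside 0.02 and -0.01 over all tested genes. Genes of this list named by the rule were POU2F2 at 1.05, 2.5 and 1.56, B3GNT8 at 1.05, 2.14 and 1.88, and RABAC1 at 452.89, 627.86 and 682.19.

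**Figure D4:**
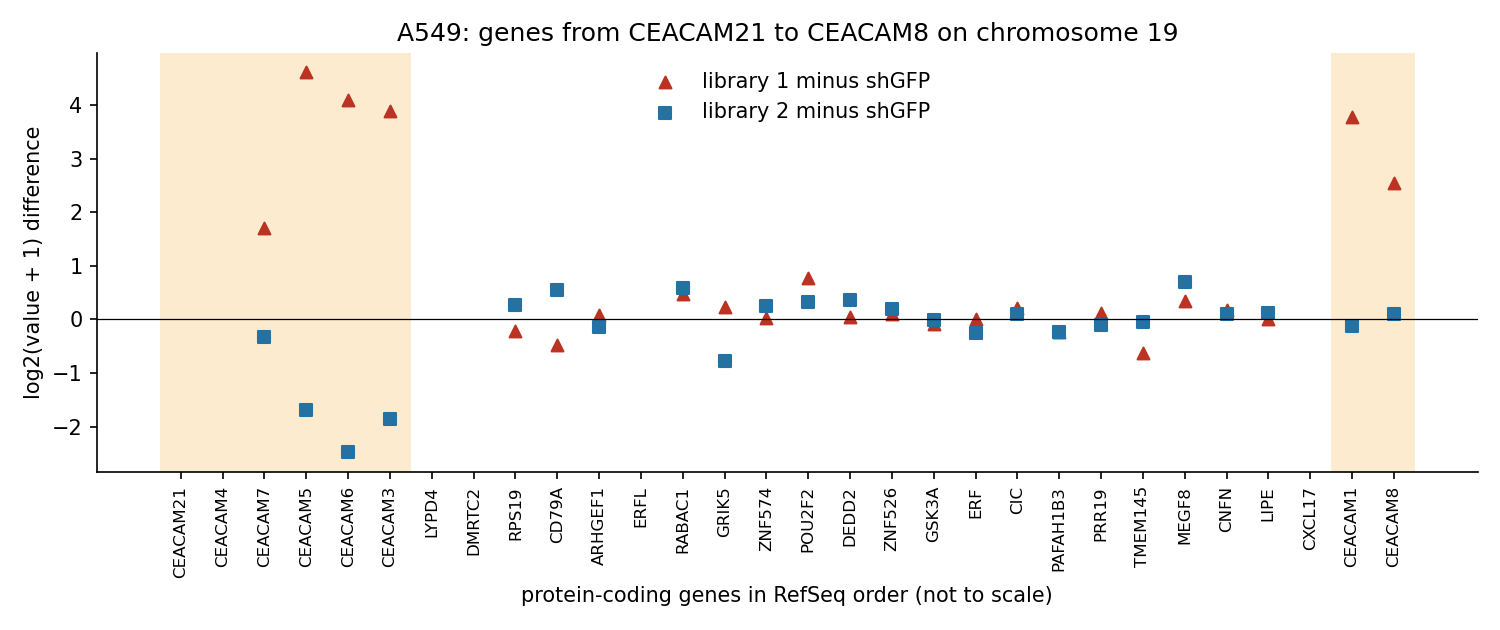
Differences from shGFP in log2(value + 1) in A549 for protein-coding genes from CEACAM21 to CEACAM8 in RefSeq order (not to scale); shaded columns are CEACAM genes, and columns without points had a mean under 1 or no row. The family genes at both ends reach up to 4.61 in library 1, while the 18 plotted genes between them run from -0.62 to 0.77; 1 gene of this stretch, at least 2-fold lower in library 1, is not plotted.

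The genes with the pattern most like that of CEACAM6 were sought over its 2 differences from shGFP among 14892 genes with a mean of at least 5, by Euclidean distance. In order, the 8 closest were KRT4, CEACAM3, CEACAM5, MGAM2, VIL1, FCGBP, C9orf152 and RAB37. KRT4, a keratin of stratified mucosa, was nearest, at 39.21 in shGFP, 454.64 in library 1 and 5.94 in library 2 (distance 0.592). CEACAM3 and CEACAM5 followed at 0.655 and 0.957. FCGBP, a mucin-like secreted protein, went from 434.74 to 2780.36 in library 1 and 106.56 in library 2, and VIL1, which bundles actin in the brush border, from 1.32 to 33.21 and 0. MGAM2 was at 2.37, 31.43 and 0, C9orf152 at 3.95, 71.79 and 1.56, and RAB37, a small GTPase of secretory granules, at 10.79, 87.14 and 3.75. CEACAM1 ranked 31, at a distance of 2.38, its library 2 value being close to that of the control. CEACAM3, MGAM2, VIL1 and C9orf152 reached the mean of 5 only through library 1, so the filter had a part in their choice, as the values that chose the members had in that of CEACAM3 and CEACAM5. The likeness rests on 3 libraries and is a description.

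**Figure D5:**
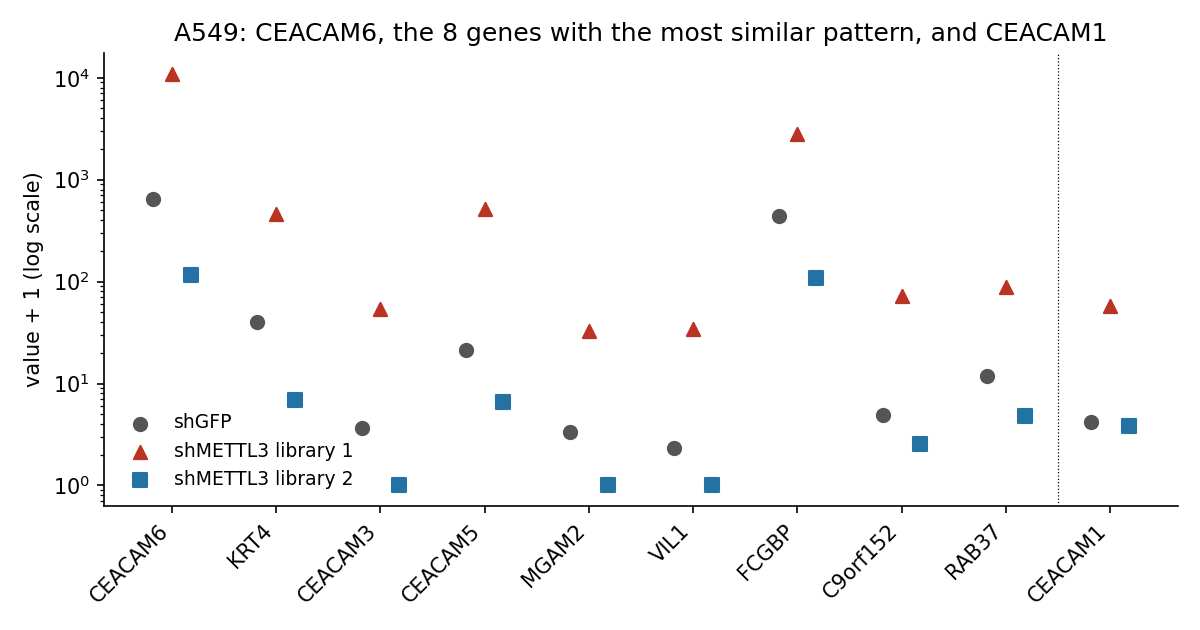
Value plus 1 (log axis) in the 3 A549 libraries of CEACAM6, the 8 genes closest to it in order of distance, and, right of the dotted line, CEACAM1. The first 9 genes all have library 1 above and library 2 below shGFP, as CEACAM6 does with 10971.79 and 114.06 around 642.37.

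Lists of related genes, chosen with earlier results of these data known, were compared with the family. In A549 limma called none of 17454 genes between shMETTL3 and shGFP at an adjusted p under 0.05 (0%), with 115 below 0.05 before adjustment. METTL3, the gene knocked down, was not called either (log2 difference -1.26, limma unadjusted p = 0.00165). A lack of calls therefore does not show a lack of change. edgeR called 0 of 16263, with 111 below 0.05 before adjustment. None of the list genes below passed the test, so their values are descriptions. Of 22 gut-type epithelial genes, 18 are listed and 14 had a mean of at least 1. For 2 of them, VIL1 and AGR3, this was only through library 1, so that their direction was fixed by the filter. In library 1, 10 were at least 2-fold above shGFP (3.48% of all tested genes) and 0 below (1.38%), with a median log2 difference of 2.01. In library 2, 6 were at least 2-fold lower (1.8% of all tested genes) and 0 higher (1.16%), with a median of -0.66. The list was chosen with these data known, so nothing is read from its counts. The 10 higher in library 1 include VIL1 and TSPAN8, a tetraspanin, at 1.58, 33.21 and 0.94. KRT20, a keratin of the gut, at 4.21, 56.07 and 3.13, is another. Other genes of the list differed by less than 2-fold in library 1. CDX2 was at 7.63, 7.86 and 7.19, CLDN18 at 4.47, 4.29 and 2.81, and HNF4A at 34.21, 60.71 and 11.56. AGR3 was at 0, 4.29 and 0. The summed value of the list was 1356.05 in shGFP, 5775.69 in library 1 and 475.33 in library 2, the same order as CEACAM6. Most of this sum was a single gene, AGR2, at 958.42, 4548.21 and 303.75. The part of the list in the family's values was not tested.

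General epithelial markers differed less between the libraries, with KRT19 at 421.58, 1396.43 and 426.56 and EPCAM at 22.63, 75.36 and 14.06. CDH1 was at 386.32, 646.43 and 284.06. Of the 5, 2 were at least 2-fold higher in library 1 than in shGFP (3.48% of all tested genes) and 0 lower (1.38%). Against library 2, 3 were higher in library 1 (5.43%) and 0 lower (2.3%). The median over these 5 markers was 0.74 in library 1 and -0.08 in library 2, and their sum was 18700.53, 26155.37 and 18101.87. Granulocyte markers were examined because CEACAM3 and CEACAM8 are granulocyte genes. Of 10, 7 are listed, their sum was 7.37 in shGFP, 5.72 in library 1 and 11.26 in library 2, and MPO was at 0, 0.36 and 0. CD177 at 0.53, 0.71 and 2.19, CXCR2 at 2.37, 2.86 and 4.69 and AZU1 at 1.05, 0 and 3.13 were highest in library 2. PRTN3 at 2.37, 1.79 and 0.94 was lowest there. Of these 4 tested genes, 1 was at least 2-fold lower in library 1 than in shGFP (1.38% of all tested genes) and 0 higher (3.48%). In library 2, 2 were at least 2-fold higher (1.16%) and 0 lower (1.8%). The leukocyte list summed to 198.14, 223.22 and 212.5, most of it CD68 at 158.42, 167.86 and 176.56. Of 3 tested endothelial genes, 2 were at least 2-fold higher in library 1 than in shGFP (3.48% of all tested genes). Their median was 1.22 in library 1 and 0.05 in library 2. CDH5, the cadherin of vessel walls, was at 1.84, 11.07 and 0 and reached a mean of 1 only through library 1. KDR, a receptor for vascular growth factor, was at 1.58, 5 and 2.81, and PECAM1 at 16.58, 12.86 and 17.19. VWF did not exceed 0.71, and the sum of the list was 20.79, 29.64 and 20.31. The 4 tested alveolar type 2 genes went different ways, with a median of 0.10 in library 1 and -0.03 in library 2. ABCA3 stood at 404.74, 566.43 and 425, SFTPB at 11.58, 5.71 and 8.13, and NAPSA at 7.11, 5.71 and 7.19. SFTPD, at 1.05, 3.93 and 0.94, reached a mean of 1 only through library 1, and SFTPC did not exceed 0.36. Of 4 tested fibroblast genes, 2 were at least 2-fold higher in library 1 than in shGFP (3.48% of all tested genes) and 1 was lower (1.38%). Their median was 0.83 in library 1 and 0.47 in library 2. The collagen genes COL1A1 and COL3A1 were at 59.74, 91.79 and 72.19 and at 1.58, 9.64 and 3.13, LUM was at 0, 1.07 and 2.19, and PDGFRA was at 3.42, 1.07 and 2.5. The sum of the list was 65, 103.57 and 80.01. The part of these other markers in the family's values was not tested.

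The genes that build and attach the GPI anchor, which CEACAM5 and CEACAM6 need, differed by less than 2-fold between the libraries. All 28 were tested, and none was at least 2-fold higher or lower in library 1 or in library 2 against shGFP, or between the knockdown libraries. Over all tested genes, 3.48% were higher and 1.38% lower in library 1, and 1.16% and 1.8% in library 2. Between the knockdown libraries 5.43% were higher and 2.3% lower. At such shares few genes of a list would be past 2-fold, so nothing is read from these counts or those below. The median difference of the 28 was 0.04 in library 1 and -0.02 in library 2. First by the size of its mean difference was PIGW, an enzyme of anchor synthesis, at 353.95, 308.93 and 216.88. Of 37 other GPI-anchored surface proteins, 29 were tested, and 1 was at least 2-fold higher and 3 were at least 2-fold lower in library 1 than in shGFP. The higher one, MSLN (mesothelin), was at 0.79, 2.86 and 0.94 and reached a mean of 1 only through library 1, so that its direction was fixed by the filter. In contrast, GFRA1, a growth factor coreceptor, was at 48.42, 15 and 34.38, and TFPI, an inhibitor of clotting, at 281.05, 128.93 and 243.44. Of 30 partners of CEACAM signalling, 27 were tested and none was at least 2-fold higher or lower in library 1 than in shGFP. In library 2, 1 was at least 2-fold higher than in shGFP and 0 were lower. Against library 2, 1 was at least 2-fold higher in library 1 and 2 were lower. Among the partners EGFR was at 155, 91.43 and 94.06. SYK, a kinase recruited by CEACAM3, was at 3.95, 8.21 and 4.06, and ITGB3, an integrin, at 13.95, 7.5 and 41.25. Of 35 other adhesion genes of the immunoglobulin superfamily, 25 were tested and none was at least 2-fold higher or lower in library 1, with a median of 0.12. In library 2, 1 of them, MCAM, was at least 2-fold higher than in shGFP, and 0 were lower. MCAM was at 104.74, 113.93 and 219.69 and PVRL4 (nectin-4) at 8.42, 12.86 and 14.06. JAM2, at 7.37, 4.64 and 4.38, and JAM3, at 43.42, 27.86 and 33.44, were lower in both knockdown libraries. The 14 interferon-responsive regulators had a median of 0.44 in library 1 and 0.12 in library 2, and none was at least 2-fold higher in either. In library 2, 1 was at least 2-fold lower. Of these, STAT2 was at 87.63, 136.43 and 106.25 and MX1 at 3.42, 5.71 and 5.

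In H1299 a test was run. The genes were chosen above all by their A549 values, but with earlier results of these data known. The H1299 test is therefore not taken as independent of that choice. CEACAM5 stood at 4.7 in shGFP, 3.6 in library 1 and 3.6 in library 2, which correspond to about 24, 16 and 18 reads. Reads were recovered less surely in H1299 than in A549, since its values keep 1 decimal. The knockdown libraries were level with each other and slightly under the control. The log2 difference of shMETTL3 from shGFP was -0.31 (SE 0.36, 95% interval -1.21 to 0.60, limma unadjusted p = 0.427, adjusted p = 1). A change was not detectable, and the interval does not show that the libraries were alike. The background of this test is 0% of 16470 genes called, with 99 at an unadjusted p under 0.05. METTL3 itself was not called in H1299 (log2 difference -1.28, limma unadjusted p = 0.00304). CEACAM1 was at 0.2, 0 and 0, a single read in the control, and was not tested. The ratio of library 1 to shGFP for CEACAM5 had an exact counting interval of 0.375 to 1.48 in H1299 and of 20.4 to 32.7 in A549. The tables of the lines were scaled separately, and the difference between lines was not tested.

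The 3 other family genes tested in H1299 were not highest in library 1. CEACAM8 was at 14.1, 12.2 and 13 (log2 difference -0.15, SE 0.32, limma adjusted p = 1), a control value near that of A549. CEACAM19 was at 16.1, 9.1 and 22.2, lowest in library 1 and highest in library 2, and its mean difference was -0.16 (SE 0.55, limma adjusted p = 1). CEACAM22P was at 18.2, 16.9 and 19.8. The gut-type genes were almost absent in this line: 12 of 22 are listed, their sum was 19.1, 17.9 and 20.2, and 1 had a mean of at least 1. VIL1 was at 0 in all 3 H1299 libraries.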

How the data were processed

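RNA-seq tables of 6 libraries were used. The deposited signal values are normalized. In each library they are multiples of a fixed step, as if the authors had divided read numbers by a constant (3.8, 2.8 and 3.2 in A549 and 5.1, 4.5 and 5 in H1299, for shGFP, library 1 and library 2). All values (100%) fell on such a step to within their rounding, at 2 decimals in A549 and 1 in H1299. In H1299 this rounding is coarse against the step, a stricter check for whole reads failed, and read numbers there are approximate. The basis of these constants is not stated. Tools named in the submitters' processing notes are TopHat and Bowtie, with build hg19. The counter, its annotation, its strand setting and its treatment of reads shared by paralogs are likewise not stated. Columns headed shMEL in the A549 table were matched to the knockdown samples by number.

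Reads were recovered by multiplication and gave exact binomial intervals (scipy 1.17.1), which cover counting error only. Differences were of log2(value + 1), for genes with a mean of at least 1 in the line. shMETTL3 was tested against shGFP within a line by limma 3.58.1 with an intensity trend and Benjamini-Hochberg adjustment, with 1 residual degree of freedom per gene, and in A549 also by edgeR 4.0.16. The scripts were tested on simulated data. Named genes were the 4 members, at most 4 genes per list with the largest absolute mean difference from shGFP in A549, and the 8 genes most like the member with the highest mean. PTPRC, MPO, VWF, SFTPC, AGR2, CDX2, CLDN18, HNF4A, CDH1 and the CEACAM genes with a mean under 1 are outside this rule. They were named after their values were seen. A gene between CEACAM3 and CEACAM1 and a gut-type gene are not reported here by name, and the former is left out of the values by gene order. The members and lists were chosen with earlier results of these data known. Promoter windows are from RefSeq (GRCh38.p14), where all 4 members matched, and were aligned with Biopython 1.88. m6A peaks, on hg19, were not assigned to genes and were not analysed here. Alternatives covered the pseudocount, filters, scaling, the fit and single libraries left out.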

Additional observations from a re-analysis of the deposited data

How the results depend on the processing

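No gene was called between shMETTL3 and shGFP in either line under any alternative that kept both knockdown libraries (0 to 0 genes called in each line). With library 1 or 2 left out, a line had 1 library against 1. Those runs fitted both lines together and took their spread from the other line, so only their differences are given. The A549 differences of the members kept their direction under a pseudocount of 0.1, median centring and equal library totals. With a pseudocount of 0.1 the differences of CEACAM3, which has 0 reads in library 2, became -4.77 for library 2 against shGFP and 9.05 for library 1 against library 2, since the fitted size then depends on the pseudocount. In H1299 the difference of CEACAM19 ranged from -0.76 to 0.44 with library 2 or library 1 left out. That of CEACAM22P became -0.0185 with median centring and ranged from -0.10 to 0.12 with library 2 or library 1 left out. For CEACAM5 in H1299 no alternative with both knockdown libraries passed the threshold, and none changed the direction. At a mean of at least 5, the A549 genes past 2-fold numbered 401 higher and 133 lower in library 1 against shGFP (608 and 241 at a mean of at least 1), 83 and 193 in library 2 against shGFP (202 and 315), and 218 lower in library 1 against library 2 (401). At 1.5-fold these counts became 1622 and 875, 849 and 1050, and 2162 and 1300. Of the 8 genes most like CEACAM6, 5 remained at a mean of at least 20.

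No paired analysis was possible because each line has a single shGFP library, which carries no number. edgeR was not run in H1299, where a stricter check for whole reads failed, so that read numbers and counting intervals of that line are approximate. The 2 alternatives for m6A peaks were not run. Depth limits CEACAM1, CEACAM3 and CEACAM7 outside A549 library 1 and the family in H1299, where no member had more than 24 reads.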
